A study of Mus musculus with 24 samples.

Results

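Rag1 and Rag2 encode the recombinase that cuts antigen-receptor DNA, and they lie side by side on mouse chromosome 2 with their 3′ ends facing each other. The data described here are the open-chromatin peaks in the bodies of both genes and in 120 kb on either side, at chr2:101504712-101769532 of the mm10 build. Peaks of 24 libraries were joined wherever they touched, which gave 159326 regions genome-wide. Of these, 39 touch the window, and the 35 that 2 or more libraries of the same group share are described. The choice used position and presence only, not a difference between groups. The assay was ATAC-seq, in which a transposase inserts adapters into accessible DNA. The libraries came from mouse bone marrow cells sorted as pre-pro-B, pro-B or small pre-B cells, from WT mice and from Mki67-/- mice. There were 4 libraries in each of the 6 groups of stage and genotype. The product of Mki67 is Ki-67, which is made in cycling cells and coats their mitotic chromosomes. The sorting markers, the structure of the Mki67 allele, the strain and the age of the mice are not given in the sources used here. The labels do not state whether each library of a group is a mouse of its own. The p-values therefore rest on the spread between these libraries only, and that spread may be technical.

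RAG1 carries the catalytic site and RAG2 is its obligate partner. Together they make the DNA breaks that start V(D)J recombination, which joins the heavy-chain genes in pro-B cells and the light-chain genes in small pre-B cells. Transcription of the pair starts from a promoter at each gene and depends on distal enhancers. In B-lineage cells such enhancers, among them the one named Erag, lie upstream of Rag2, and T-lineage cells use partly other elements. The coordinates of these named enhancers are not in the files, so regions are called here by their distance from a gene start. Rag2 (chr2:101624712-101632528, plus strand) and Rag1 (chr2:101638252-101649532, minus strand) share the window with 3 other protein-coding genes, Iftap, Traf6 and Prr5l, and with the long noncoding RNA genes Gm39887 and Gm34041. Iftap (chr2:101560779-101629031, minus strand) runs across most of the upstream side of Rag2, and its own start lies inside the body of Rag2. Traf6 encodes a signalling adaptor of Toll-like and TNF-family receptors.

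The 3 promoters on which the stage comparison turned are printed below from RefSeq (GRCm38.p6, the assembly that mm10 is a version of), 5′ to 3′ on the strand of each gene, from 250 bases before the start to 50 after it. Capitals mark matches to any of 9 short motifs of B-lineage factors, searched on both strands.
Rag1, chr2:101649483-101649782, minus strand: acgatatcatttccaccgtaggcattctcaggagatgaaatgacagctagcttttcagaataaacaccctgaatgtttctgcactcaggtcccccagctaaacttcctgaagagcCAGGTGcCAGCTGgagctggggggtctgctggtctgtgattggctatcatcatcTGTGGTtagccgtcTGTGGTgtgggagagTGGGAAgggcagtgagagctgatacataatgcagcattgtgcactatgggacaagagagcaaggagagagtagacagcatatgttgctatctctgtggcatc
Rag2, chr2:101624462-101624761, plus strand: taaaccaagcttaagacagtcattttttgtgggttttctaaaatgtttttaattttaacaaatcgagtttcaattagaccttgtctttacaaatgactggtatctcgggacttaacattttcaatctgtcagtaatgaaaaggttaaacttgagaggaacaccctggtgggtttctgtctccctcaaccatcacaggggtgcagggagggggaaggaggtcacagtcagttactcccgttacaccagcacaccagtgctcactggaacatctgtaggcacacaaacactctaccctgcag
Iftap, chr2:101628982-101629281, minus strand: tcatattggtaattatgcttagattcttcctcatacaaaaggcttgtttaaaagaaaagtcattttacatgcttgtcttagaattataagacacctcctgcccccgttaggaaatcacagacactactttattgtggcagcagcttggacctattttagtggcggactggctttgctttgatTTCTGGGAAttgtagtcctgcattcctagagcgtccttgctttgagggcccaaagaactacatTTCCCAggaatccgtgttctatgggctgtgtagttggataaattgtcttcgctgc

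The Rag1 promoter holds the E-boxes CAGGTG and CAGCTG, a match to TGGGAA (Ikaros) and 2 matches to TGTGGT (Runx). Of the 32851 RefSeq promoters of this length, 20.2% hold CAGGTG, 16.3% CAGCTG, 25.6% TGGGAA and 16.8% TGTGGT. The Iftap promoter holds 2 matches to TGGGAA, 1 of them inside its match to TTCNNNGAA (Stat5), a motif of 8.3% of promoters. No capitals stand in the Rag2 promoter, because none of the 9 motifs is in this window. The other motifs searched were GTAAACA (forkhead, 3.65% of promoters), GAGGAAGT (PU.1 type, 3.2%), CCGGAAGT (Ets, 3.89%) and the Ebf motif (0.904%). A match is a string of letters and not evidence of binding. The whole of the printed Rag1 sequence lay in its peak region (300 of 300 bases), as did 215 bases of the Rag2 sequence. A second RefSeq promoter of Iftap, at chr2:101620997-101621296, lay under no region.

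Peaks are compared by rank, because each library's list was called separately at its own depth. The rank score places a peak among the 40000 strongest of its library by −log10 q, where 100 is the strongest and 0 means no peak among the 40000. Differences were tested by two-sided exact permutation with Benjamini-Hochberg adjustment over all regions of the genome tested, at 0.05. A rank is relative to the other peaks of a library, and in a sorted population fewer cells with an open site cannot be told apart from less opening per cell. The authors' lists held 54387 to 88946 peaks after joining, and the background coverage recovered from the peak values ran from 1.86 to 5.3 reads. The highest mean was in WT pre-pro-B (4.29 ± 1.26, SD, n = 4), against 3.26 ± 0.987 in Mki67-/- pre-pro-B. The promoter of Mki67 itself had a peak in all 24 libraries with rank scores of 78.8 to 88.6, so it is no check of the genotype labels. Peaks within 10 kb of 8 B-lineage marker genes numbered 22 to 30 in pre-pro-B libraries, 60 to 66 in pro-B and 52 to 59 in small pre-B. In the same order 6 T-lineage genes had 15 to 19, 10 to 14 and 9 to 12 peaks, and 6 myeloid genes 14 to 19, 8 to 12 and 11 to 15. Counts of 4 NK and innate genes were 8 to 12, 5 to 6 and 4 to 7, of 4 plasmacytoid dendritic genes 11 to 14, 6 to 8 and 7 to 10, and of 3 erythroid genes 6 to 7, 5 to 8 and 5 to 7. Gata1 was at 0 in all libraries and Ncr1 in all pro-B and small pre-B libraries. The T-lineage genes Cd3e and Cd8a had a peak among the 40000 in some pre-pro-B library and in no later one. Of the 6 T-lineage genes, 3 still had such a peak in some pro-B library and 4 in some small pre-B library. Whether cells of other lineages have a share in the stage differences below was not tested.

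**Figure D1:**
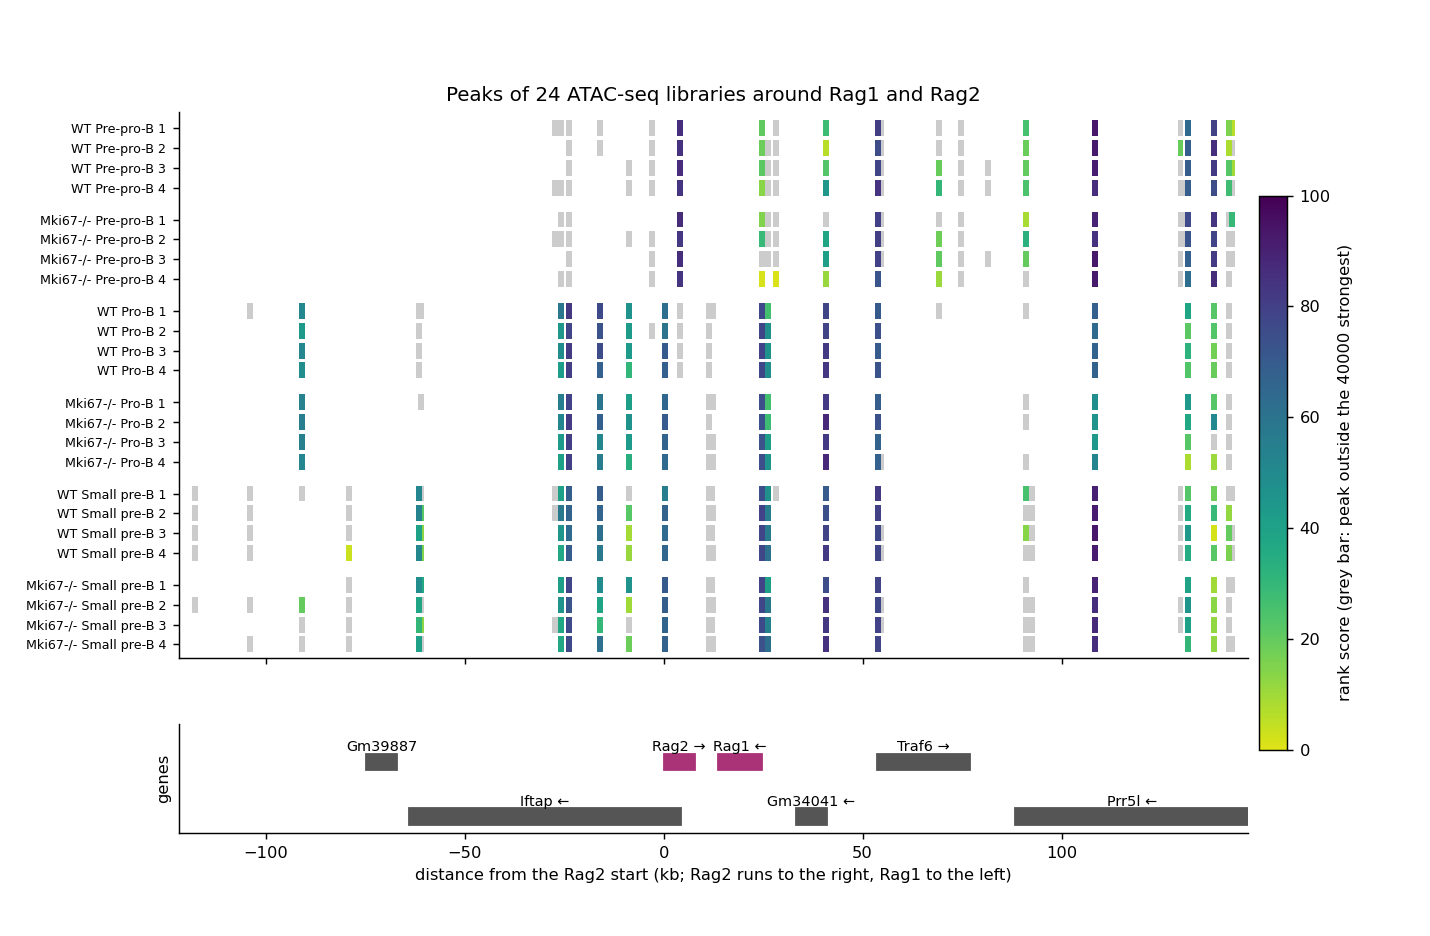
Peaks of each library (rows) along the window, by distance from the Rag2 start in kb. Colour gives the rank score, grey bars are deposited peaks outside the 40000 strongest, bars are widened to be visible, and genes are drawn below with arrows for their direction. The regions 25.9, 23.9 and 16.1 kb upstream of Rag2 are coloured in the 16 pro-B and small pre-B libraries and grey or missing in the 8 pre-pro-B libraries.

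The Rag1 promoter was already a peak in every pre-pro-B library and was much stronger at both later stages. This peak (chr2:101649139-101649934) scored 20.5, 18.3, 21.3 and 13.6 in WT pre-pro-B, and 14.8, 29.0, 0 and 1.16 in Mki67-/- pre-pro-B. Pro-B libraries scored 77.1, 78.5, 79.4 and 77.5 in WT and 75.1, 74.0, 73.7 and 75.3 in Mki67-/-. The lowest pro-B library thus stood far above the highest pre-pro-B library. The step was 61.5 (from 14.8 to 76.3, n = 8 each, adjusted p = 0.00076, exact permutation), and 5.49% of the tested regions rose as far. Small pre-B libraries overlapped pro-B, with 74.7, 79.1, 78.1 and 77.5 in WT and 79.0, 77.6, 76.6 and 73.3 in Mki67-/- (adjusted p = 0.528, exact permutation). The authors' fold over background at the Rag1 promoter was 6.10 to 8.49 in pre-pro-B and 12.98 to 19.99 later. Fold also ran higher later at the Traf6 promoter (12.9 to 16.9 in pre-pro-B and 19.5 to 29.0 later), so such a rise is not particular to Rag1.

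The Rag2 promoter, by contrast, went from no deposited peak to a strong one. None of the 8 pre-pro-B libraries had a peak at chr2:101624547-101625623, and all 16 later libraries did. Rank scores in pro-B were 62.1, 59.9, 70.6 and 67.7 for WT and 65.4, 70.4, 66.6 and 65.0 for Mki67-/-. In small pre-B they were 55.9, 67.5, 64.2 and 65.1 for WT and 70.8, 68.8, 66.2 and 67.2 for Mki67-/-. The pro-B and small pre-B values overlap throughout. The first step was 65.9 (adjusted p = 0.00076, exact permutation, 4.42% of tested regions as far), and the second was -0.22 (adjusted p = 0.926). As presence in the deposited lists, without ranks, the first step of the Rag2 promoter also passed, where 16.4% of 101367 regions rose.

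Inside the body of Rag2 the order was turned round. The region over the start of Iftap (chr2:101628216-101629230) had rank scores of 85.8, 84.8, 86.7 and 83.8 in WT pre-pro-B and 86.9, 83.4, 86.1 and 83.9 in Mki67-/- pre-pro-B, and 0 in all 16 later libraries. It was the strongest peak of the gene pair in pre-pro-B cells. The fall of 85.2 (adjusted p = 0.00076, exact permutation) was matched in size by 0.303% of the tested regions. In the deposited lists a weak remnant stood in all 4 WT pro-B libraries, at 3.03 to 4.32 times background against 14.1 to 17.8 times in WT pre-pro-B. No Mki67-/- pro-B and no small pre-B library had one.

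**Figure D2:**
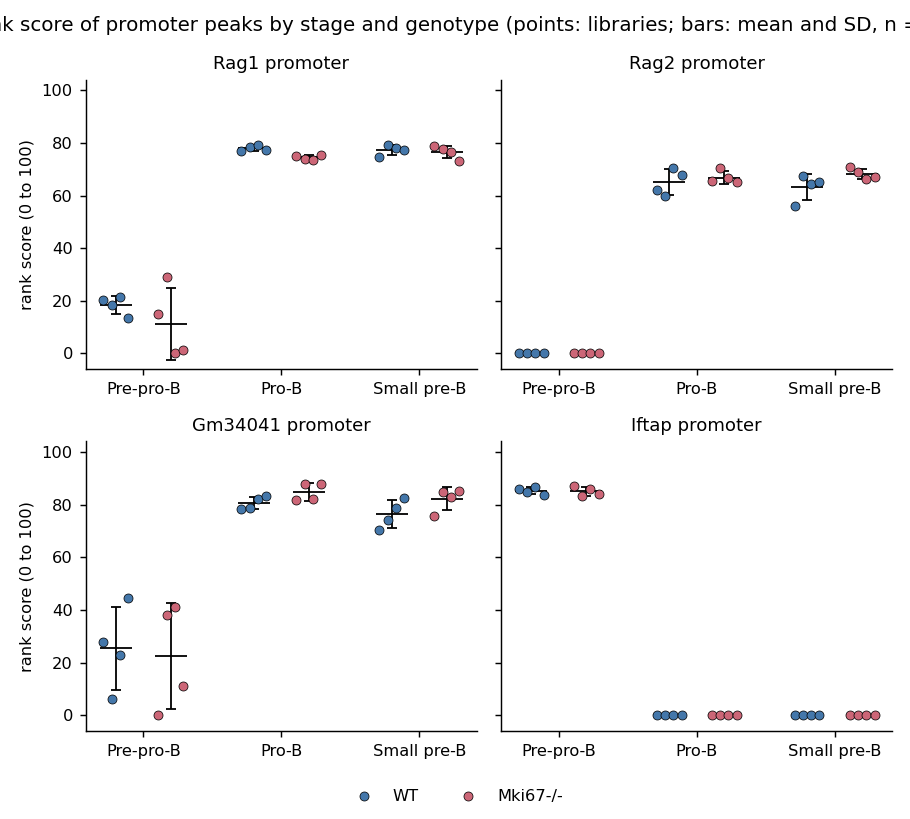
Rank score (0 to 100) of 4 promoter peaks by stage and genotype, with each library as a point and the mean and SD of 4 libraries as bars. The Rag1, Rag2 and Gm34041 promoters stand between 55.9 and 87.8 at both later stages, and the Iftap promoter stands between 83.4 and 86.9 in pre-pro-B and at 0 afterwards.

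Upstream of Rag2, 4 regions within 26 kb entered the 40000 strongest at the pro-B stage in all 8 libraries, and 3 of them stayed there in all 8 small pre-B libraries. All 4 lie inside the body of Iftap. The strongest was the region 23.9 kb upstream (chr2:101600375-101601296). It scored 82.8, 78.0, 81.8 and 80.5 in WT pro-B and 79.4, 81.8, 80.4 and 79.5 in Mki67-/- pro-B. Small pre-B libraries were lower, at 68.8, 67.2, 63.5 and 69.7 in WT and 77.9, 72.7, 76.2 and 76.9 in Mki67-/-, and the 2 stages did not overlap. All 8 pre-pro-B libraries had a deposited peak there outside the 40000, at 3.51 to 8.34 times background against 13.1 to 18.2 times later. Its first step was 80.6 (adjusted p = 0.00076, exact permutation), a rise reached by 1.67% of tested regions. The second was -8.95 (adjusted p = 0.00102), which was -3.51 (adjusted p = 0.250) when peaks were ranked by fold.

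The region 16.1 kb upstream (chr2:101608313-101608913) had the highest fold over background on this side. In pro-B it scored 76.8, 73.3, 76.0 and 67.5 in WT and 59.7, 67.9, 50.7 and 56.0 in Mki67-/-. Small pre-B scores were 68.8, 66.5, 61.5 and 57.1 in WT and 49.5, 38.5, 29.8 and 61.0 in Mki67-/-. Of the pre-pro-B libraries only 2, both WT, had a deposited peak, and neither was among the 40000. The first step was 66.0 (adjusted p = 0.00076) and the second -11.9 (adjusted p = 0.0187), both by exact permutation. WT stood above Mki67-/- at both later stages with 1 library crossing in each, and the test of that difference is given with the genotype comparison.

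The region 25.9 kb upstream (chr2:101598514-101599161) was weaker and flat between the later stages. Its scores ran from 40.3 to 58.3 over the 8 pro-B libraries and from 36.7 to 57.8 over the 8 small pre-B libraries (second step -5.18, adjusted p = 0.195, exact permutation). The first step was 47.9 by rank of q, and 4.76 (adjusted p = 0.106) by rank of fold. Nearest to the gene, the region 8.6 kb upstream (chr2:101615560-101616603) was a pro-B peak that faded. It scored 46.1, 42.0, 42.8 and 30.6 in WT pro-B and 41.1, 45.9, 42.5 and 33.7 in Mki67-/- pro-B. Small pre-B libraries were at 0, 21.9, 8.73 and 11.03 in WT and at 45.8, 9.69, 0 and 18.5 in Mki67-/-. The fall of 26.1 passed (adjusted p = 0.00402, exact permutation), although Mki67-/- small pre-B replicate 1 scored as high as the pro-B libraries.

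Farther out, 2 places differed in rank between the pro-B and small pre-B stages. The region 90.9 kb upstream (chr2:101533536-101534076, in no annotated gene) scored 50.7, 43.3, 51.2 and 49.0 in WT pro-B and 53.6, 56.0, 54.6 and 51.8 in Mki67-/- pro-B. It was at 0 in all pre-pro-B libraries, which had no deposited peak there, and at 0 in 7 of 8 small pre-B libraries, the other being Mki67-/- replicate 2 with 19.5. In the deposited lists 4 of the 8 small pre-B libraries kept a peak, at 4.14 to 13.5 times background. Its rise of 51.3 and its fall of 48.8 both passed (adjusted p = 0.00076 and 0.00102, exact permutation), and 4.39% of tested regions fell as far at the second step. The fall was not called by presence in the deposited lists (adjusted p = 0.237) or by presence at −log10 q of at least 10 (adjusted p = 0.0656). The region 61.4 kb upstream (chr2:101562972-101563593, in the far part of Iftap) was the reverse. It was at 0 in the 16 earlier libraries and scored 51.5, 53.1, 39.8 and 51.1 in WT and 48.8, 37.9, 30.3 and 39.8 in Mki67-/- small pre-B. That rise of 44.03 passed (adjusted p = 0.00102, exact permutation), with 3.96% of tested regions rising as far. In the deposited lists 4 pro-B libraries, all WT, already had a peak at 61.4 kb. By presence in those lists the rise was not called (0.5, adjusted p = 0.117, exact permutation). A companion region 60.9 kb upstream entered the 40000 in 5 small pre-B libraries, at 12.95 to 35.9 (second step 12.4, adjusted p = 0.0441, exact permutation, 0.0573 when regions present in at least 1 library were tested, and 0.0559 by deposited presence). The call at 60.9 kb was also lost when libraries were blocked by replicate number. Among the 40000, the regions at 61.4 and 60.9 kb met the filter of 4 libraries through small pre-B alone.

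**Figure D3:**
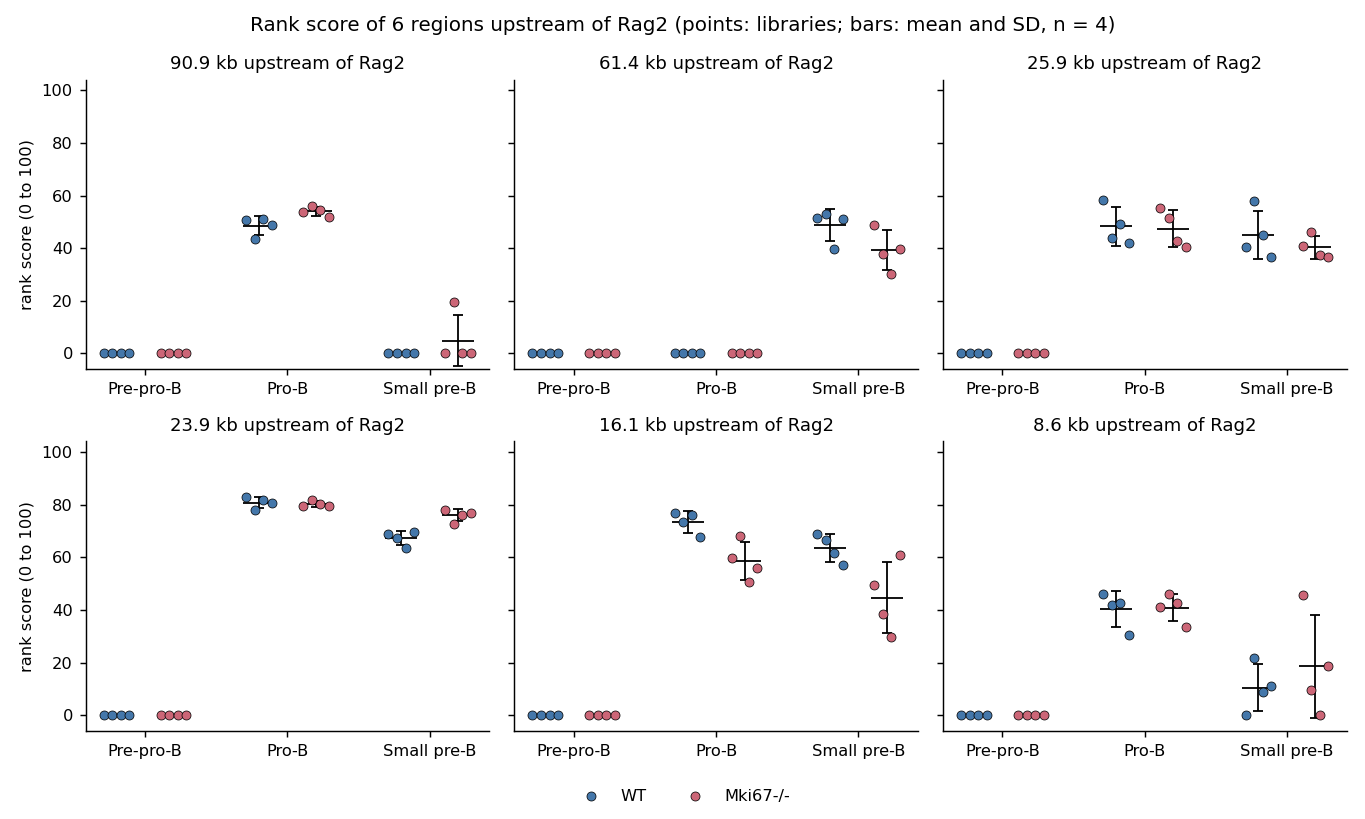
Rank score (0 to 100) of 6 regions upstream of Rag2 by stage and genotype, with each library as a point and the mean and SD of 4 libraries as bars. The regions at 25.9, 23.9 and 16.1 kb are up at both later stages, those at 90.9 and 8.6 kb mainly in pro-B, and that at 61.4 kb in small pre-B.

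Between the 2 genes there were 3 weak regions, at 11.4, 12.1 and 12.5 kb past the Rag2 start. All were outside the 40000 strongest in every library. The region at 11.4 kb had a deposited peak in all 16 later libraries, at 4.13 to 8.60 times background, and in no pre-pro-B library. The other 2 had one in 8 libraries each, none of them pre-pro-B.

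On the other side, upstream of Rag1, the nearest region was 1.3 kb from the start (chr2:101650465-101651198). It was at 0 in pre-pro-B and scored 26.2, 47.6, 46.6 and 48.4 in WT and 26.3, 27.5, 41.9 and 45.6 in Mki67-/- pro-B. It went on rising in small pre-B, to 47.2, 55.8, 56.4 and 61.0 in WT and 41.0, 57.9, 54.3 and 62.1 in Mki67-/-. The first step was 38.8 (adjusted p = 0.00076) and the second 15.7 (adjusted p = 0.00832), by exact permutation. The first was 3.34 (adjusted p = 0.0850) by rank of fold. A weak region 3.4 kb upstream did the opposite, with a deposited peak in all 8 pre-pro-B libraries, in no pro-B library and in 1 WT small pre-B library.

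The strongest rise on this side was 16.1 kb upstream of Rag1, at the promoter of the noncoding RNA gene Gm34041 (chr2:101665155-101666096). Pre-pro-B libraries scattered, with 27.9, 6.25, 23.04 and 44.5 in WT and 0, 37.9, 41.0 and 11.1 in Mki67-/-. Pro-B scores were 78.4, 78.7, 82.1 and 83.2 in WT and 81.8, 87.7, 82.0 and 87.8 in Mki67-/-. Small pre-B scores were 70.4, 74.3, 78.8 and 82.6 in WT and 75.8, 84.9, 82.9 and 85.1 in Mki67-/-. The step of 58.8 into pro-B passed (adjusted p = 0.00076, exact permutation, 6.19% of tested regions as far), and the later stages overlapped (adjusted p = 0.134). Its fold over background in pro-B, 29.4 to 33.1, was the highest of any region in the window.

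In rank score, the neighbours farther upstream of Rag1 did not follow the Rag genes. The Traf6 promoter (chr2:101678044-101679085) stood at 67.5 to 84.0 in all 24 libraries. It was lower in pro-B (70.8 on average, against 79.1 at either other stage), with a first step of -8.30 (adjusted p = 0.00146, exact permutation) that turned to 8.10 (adjusted p = 0.00921) by rank of fold. In Prr5l, which encodes a component that binds the mTORC2 kinase complex, the region 83.5 kb from Rag1 (chr2:101732453-101733599) dipped in rank score in pro-B and came back. Pre-pro-B libraries scored 84.8 to 93.6 and small pre-B libraries 85.8 to 93.6. Pro-B libraries scored 68.5, 63.6, 66.4 and 67.0 in WT and 48.6, 45.7, 43.1 and 52.1 in Mki67-/-. Both steps passed (-33.8, adjusted p = 0.00076, and 32.8, adjusted p = 0.00102, exact permutation). Its span from pre-pro-B to small pre-B did not (-0.93, adjusted p = 0.552). Its fold over background in WT did not dip, with 14.7 to 19.1 in pre-pro-B and 22.3 to 24.9 in pro-B. In Mki67-/- the fold was 15.3 to 20.8 in pre-pro-B and 15.2 to 17.3 in pro-B. The regions 106.9 and 113.4 kb upstream of Rag1, also in Prr5l, were lower after pre-pro-B, with first steps of -40.7 and -61.3 (adjusted p = 0.00076 each, exact permutation), calls that were lost by rank of fold (4.93, adjusted p = 0.439, and -5.39, adjusted p = 0.491). The last 3 regions, 44.4 kb away in Traf6 and 66.3 and 117.3 kb away in Prr5l, scored at most 32.8 in any library.

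Between the pre-pro-B and pro-B stages, 9 of 17 tested regions of the window rose and 8 fell, so all passed. The background is high, since 82.1% of the 54532 tested regions passed (38.3% higher and 43.9% lower). The median absolute difference was 47.8 in the window and 19.8 over all tested regions. Between the pro-B and small pre-B stages, 5 of 15 rose and 4 fell, where 70.1% of 46299 regions passed (36.2% higher and 33.9% lower), and the median absolute differences were 8.95 and 11.5. Over the whole span, 10 of 18 rose and 5 fell, where 80.9% of 52759 passed (37% higher and 43.9% lower), with medians of 43.3 and 18.6. The shares that passed were not far from the background at any step, and the medians are a description with no test. Of the 19 regions scored among the 40000 in at least 4 libraries, 5 were outside the 40000 in all 8 pre-pro-B libraries and inside in all 16 later ones, against 5.66% of such regions genome-wide. These 5 were the Rag2 promoter, the regions 25.9, 23.9 and 16.1 kb upstream of Rag2, and the region 1.3 kb upstream of Rag1. By rank of fold the first step was not called at 25.9 kb upstream of Rag2 or at 1.3 kb upstream of Rag1. Only the Rag2 promoter of these 5 had no deposited pre-pro-B peak, while the others had one in 5, 8, 2 and 6 of the 8 libraries in the order named. In the deposited lists the same pattern held for 2 of 33 regions of the window, against 3.62% of 107685 regions.

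The 16 regions outside that set of 19 were mostly weak. Only 4 of them reached the 40000 strongest, each in 1 library except the region 118.1 kb upstream of Rag1, which did so in 3 pre-pro-B libraries. In the deposited lists the region 79.0 kb upstream of Rag2 had a peak in all 8 small pre-B libraries and in no other, as did 0.794% of regions genome-wide, and the region 117.9 kb upstream in 5 small pre-B libraries and no other. The region 49.9 kb upstream of Rag1, in Traf6, had one in all 8 pre-pro-B libraries and in no other, as did 10.1% of regions genome-wide. The region 67.7 kb upstream of Rag1 had one in 7 small pre-B libraries only. The region 2.9 kb upstream of Rag2, nearer to the gene than that at 8.6 kb, had one in 7 pre-pro-B, 1 pro-B and 0 small pre-B libraries.

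Among the 40000 strongest, the number of peaks in the window differed between stages, and which step passed depended on the list length. It was 9.38 ± 1.06 in pre-pro-B, 13 in every pro-B library and 15 ± 1.60 in small pre-B (SD, n = 8 each). The first step passed (3.63, adjusted p = 0.00113, exact permutation over the windows of all protein-coding genes), where 66.4% of gene windows did. The second also passed (2, adjusted p = 0.0277, background 42.5%), though it was 0 with the 20000 strongest peaks (adjusted p = 1). This second call was also lost when libraries were blocked by replicate number. In the window of Rag2 alone the second step did not pass (1.375, adjusted p = 0.05225, exact permutation). The span passed as well (5.63, adjusted p = 0.00121, background 64.8%). The first step was not called with the 50000 strongest peaks (0.75, adjusted p = 0.330) or with all deposited peaks. All deposited peaks numbered 20.3 ± 2.49, 21.3 ± 2.66 and 26.4 ± 1.41 in stage order, with a first step of 1 (adjusted p = 0.574) and a second of 5.13 (exact p = 0.00122 before adjustment). Within 10 kb of the gene pair, peaks among the 40000 numbered 1 to 3 in pre-pro-B, 4 or 5 in pro-B and 3 to 6 in small pre-B.

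**Figure D4:**
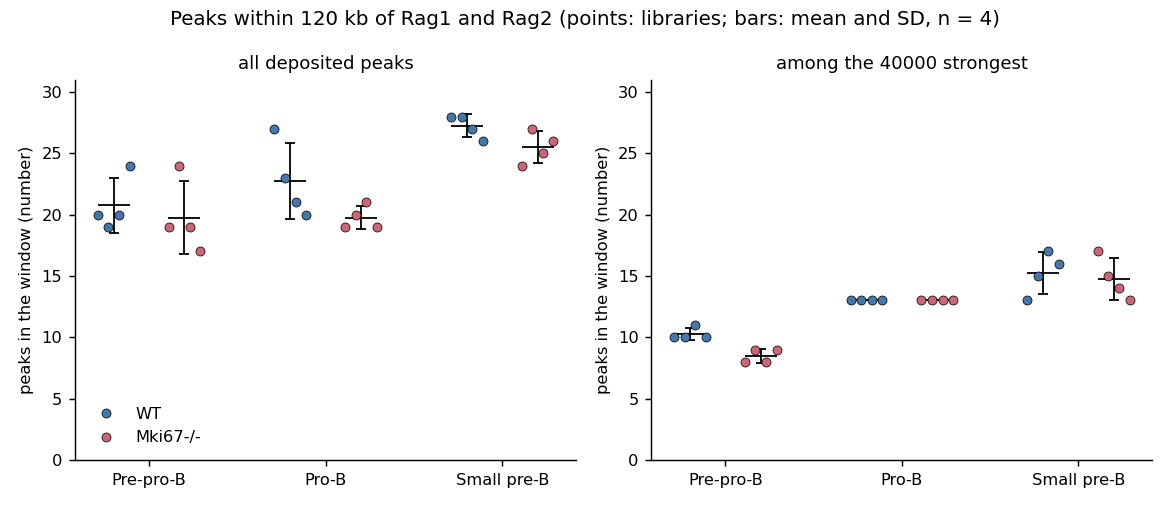
Number of peaks in the window per library (points), with mean and SD of 4 libraries, for all deposited peaks and for the 40000 strongest. Among the 40000 strongest all 8 pro-B libraries hold 13 peaks, and pre-pro-B libraries hold 8 to 11.

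The genotype comparison asks whether loss of Ki-67 changed accessibility at the recombinase genes. Across stages, 12 Mki67-/- against 12 WT libraries, 1 of 19 tested regions passed, lower in Mki67-/-, where 2.59% of 59632 tested regions passed (1.76% higher and 0.83% lower). It was the region 83.5 kb upstream of Rag1 in Prr5l (-8.11, exact permutation p = 0.00124, adjusted p = 0.0486). The call stood close to the threshold. It was lost under 8 of 10 other settings, with a difference of 0.85 where a peak had to cover 50% of its region, and in 20 of 24 runs that left out 1 library. It was kept without WT pre-pro-B replicate 4, Mki67-/- pre-pro-B replicate 3 or 4, or Mki67-/- small pre-B replicate 1. The promoters of Rag1 (-3.82, adjusted p = 0.413) and Rag2 (2.28, adjusted p = 0.348) did not pass, nor did that of Iftap (-0.06, adjusted p = 0.949). No region passed in the higher direction by the exact test or by limma, where 19% of regions had an unadjusted p under 0.05 in either direction. By the same exact permutation test 2 such regions of the window were higher, those 90.9 kb (3.45, p = 0.0143) and 23.9 kb (2.71, p = 0.0290) upstream of Rag2.

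Across stages, the widest genotype difference in the window was at the region 16.1 kb upstream of Rag2, whose library values are given above. Its mean in pro-B was 73.4 ± 4.21 in WT and 58.6 ± 7.26 in Mki67-/-, and in small pre-B 63.5 ± 5.21 and 44.7 ± 13.6 (SD, n = 4 each). Across stages the difference was -11.2, with p = 0.00163 by exact permutation, and it missed the threshold after adjustment (adjusted p = 0.0562). It was -8.71 by rank of fold (adjusted p = 0.220), and it passed (adjusted p = 0.0434) without Mki67-/- small pre-B replicate 4, the Mki67-/- library nearest to WT at that stage. The region 117.3 kb upstream of Rag1 scored 14.9, 7.72, 22.3 and 26.9 in WT pre-pro-B and 0 in all 12 Mki67-/- libraries. These scores of 0 do not mean absence. All 24 libraries had a deposited peak there, at 2.57 to 9.65 times background, and the genotype difference in deposited presence was 0. In rank score the difference of this region across stages was -9.87 (adjusted p = 0.0588, exact permutation). It passed with limma (adjusted p = 0.0454), with the 50000 strongest peaks (-16.2, adjusted p = 0.0399) and without WT small pre-B replicate 1 (adjusted p = 0.0386). Since every Mki67-/- library scored 0, the region met the filter of 4 libraries across stages through WT alone. It was thus tested because of the group in which it was higher, so p-values from these scores cannot decide whether the genotypes differ.

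Within a stage, an exact permutation test of 4 libraries against 4 cannot go below p = 0.0286, and 0% of the 39943, 38102 and 36919 regions tested in stage order passed after adjustment. At that smallest exact p stood 1 of 10 tested regions in pre-pro-B, 3 of 13 in pro-B and 2 of 14 in small pre-B, where 3.64%, 16.8% and 15.4% of all tested regions had an unadjusted p under 0.05. In pre-pro-B it was the region 117.3 kb upstream of Rag1, which met the filter of 4 libraries there through WT alone. In pro-B they were the Rag1 promoter (78.1 ± 1.03 in WT and 74.5 ± 0.820 in Mki67-/-), the region 83.5 kb upstream of Rag1 (66.4 ± 2.02 and 47.4 ± 3.86) and, higher in Mki67-/-, the region 90.9 kb upstream of Rag2 (48.5 ± 3.59 and 54.0 ± 1.75). In small pre-B they were the region 83.5 kb upstream of Rag1 (91.9 ± 1.28 and 87.4 ± 1.93) and, higher in Mki67-/-, the region 23.9 kb upstream of Rag2 (67.3 ± 2.73 and 75.9 ± 2.26). These exact permutation values do not pass adjustment (lowest adjusted p = 0.785, 0.170 and 0.186 in stage order), and their number is near the background.

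The deposited lists held 2 differences of presence between genotypes in pro-B cells. The Iftap promoter remnant and the region 61.4 kb upstream of Rag2 each had a peak in 4 of 4 WT and 0 of 4 Mki67-/- pro-B libraries (exact permutation p = 0.0286, adjusted p = 1). Both were weak in WT, at 3.03 to 4.32 and 4.61 to 6.62 times background, and ranked 70.8% to 95.3% and 76.3% to 92.2% of the way down their libraries' lists. Both regions met the filter of 4 libraries in pro-B through WT alone. A difference of 4 against 0 in either direction was found at 0.784% of the 67054 regions tested. Background coverage in these groups was 3.15 ± 0.21 in WT and 2.92 ± 0.679 in Mki67-/- (SD, n = 4), and its part in the 2 differences was not tested.

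Whether the genotype difference itself changed between stages was tested too, and 0% of regions passed for either step or the span. In the window, 3 of 17 regions had an unadjusted p under 0.05 at the first step (background 10.6%), 2 of 15 at the second (background 12.2%) and 1 of 18 over the span (background 9.85%). At the first step, the regions 90.9 kb upstream of Rag2 and 117.3 kb upstream of Rag1 were at 0 in all libraries of a stage. Their values only repeat the difference within the other stage. The lowest p was 23.9 kb upstream of Rag2, where the difference went from -0.49 in pro-B to 8.63 in small pre-B (exact permutation p = 0.0106, adjusted p = 0.309). At 83.5 kb upstream of Rag1 it went from -0.85 in pre-pro-B to -19.0 in pro-B (p = 0.0196, adjusted p = 0.332, exact permutation). Into pro-B, the Rag1 promoter rose by 59.7 in WT and by 63.3 in Mki67-/-, and the Rag2 promoter by 65.1 and 66.8, each with an exact permutation p of 0.0286 in 4 against 4 libraries.

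In peak number among the 40000 strongest, no genotype difference was called (12.8 ± 2.33 in WT and 12.1 ± 2.91 in Mki67-/-, n = 12 each, difference -0.75, adjusted p = 0.723, exact permutation, background 0.0687%). Of all deposited peaks it held 23.6 ± 3.5 (SD, n = 12) in WT and 21.7 ± 3.3 (SD, n = 12) in Mki67-/- (difference -1.92, exact permutation p = 0.0421, adjusted p = 0.605). Among the 40000, in pre-pro-B it held 10, 10, 11 and 10 peaks in WT and 8, 9, 8 and 9 in Mki67-/-, which do not overlap (exact permutation p = 0.0286, unadjusted). That p is the smallest that 4 libraries against 4 can give. The share of gene windows that separate in this way was not computed. The region 117.3 kb upstream of Rag1 was counted in every WT and in no Mki67-/- pre-pro-B library, though all had a deposited peak there. The WT pre-pro-B libraries also had the highest mean coverage, and the part of depth in this difference in peak number was not tested.

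**Figure D5:**
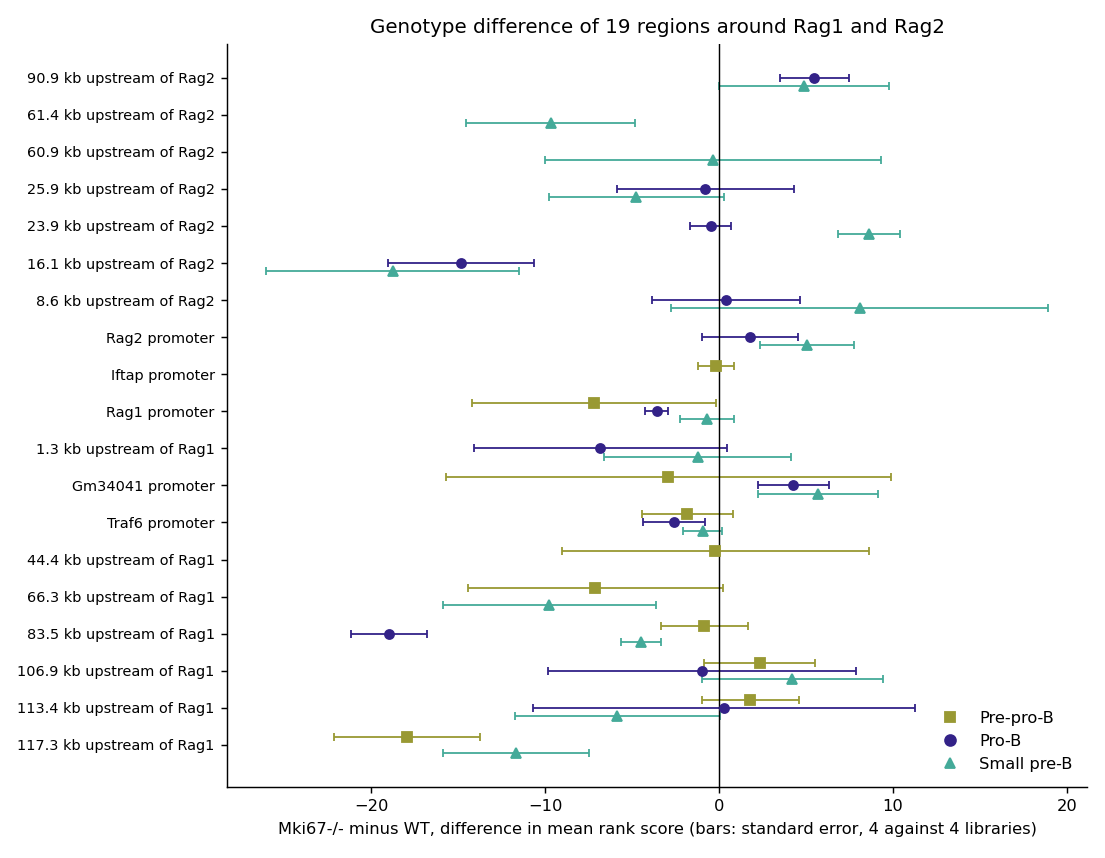
Difference in mean rank score between Mki67-/- and WT (x axis) for 19 regions in order along the window (y axis), by stage, with standard errors over 4 against 4 libraries. Stages in which all 8 libraries are at 0 are left out. The widest differences are at 16.1 kb upstream of Rag2 and at 83.5 and 117.3 kb upstream of Rag1, all lower in Mki67-/-.

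Genes that work with or on RAG were counted by their peaks among the 40000 strongest, in the body and 10 kb on either side. Of 21 known regulators of Rag transcription, 12 gained peaks and 0 lost them from pre-pro-B to pro-B, where 24.7% of 16217 genes gained and 21.1% lost. The median difference was 2 in the list and 0 over all genes. Ebf1, a factor that specifies the B lineage, went from 4.88 ± 1.36 to 17.4 ± 1.60 peaks (SD, n = 8). Pax5, which commits cells to that lineage, went from 7 ± 0.756 to 12.8 ± 0.463. Ikzf3, which encodes Aiolos, went from 3.63 ± 0.916 to 9.13 ± 0.991, and Gfi1b, a repressor of the Rag genes, from 1.5 ± 0.756 to 6 ± 0.535 (adjusted p = 0.00164 for each of the 4, exact permutation). Ebf1 and Pax5 are also on the B-lineage marker list.

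From pro-B to small pre-B, 6 of the 21 regulators gained peaks and 4 lost them, where 11.4% and 11.9% of 15745 genes did (median difference -0.25, against 0 over all genes). Runx1 fell from 15.4 ± 1.19 to 10.5 ± 2.33 and Pax5 from 12.8 ± 0.463 to 9.63 ± 1.19. Spib rose from 5.88 ± 0.354 to 8.5 ± 0.926 and Bcl11a from 5.63 ± 0.518 to 8.25 ± 1.17 (adjusted p = 0.00468 for each of the 4, n = 8, exact permutation). Over the span 13 gained and 1 lost, where 24.2% and 21% of 16050 genes did, with a median of 2.63 against 0. The gene that lost peaks, named after its values were seen, was Gata3, a T-lineage factor, from 3.25 ± 0.886 to 1.13 ± 0.354 (adjusted p = 0.00179, n = 8, exact permutation).

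Of the 17 genes of the recombination machinery, 6 gained peaks and 4 lost them from pre-pro-B to pro-B, where 24.7% and 21.1% of tested genes did. From pro-B to small pre-B 3 gained and 1 lost, where 11.4% and 11.9% did, and over the span 8 and 4, where 24.2% and 21% did, with medians of 0, 0.25 and 0.5 against 0 over all genes. Rag2 gained at the first step, from 1 in every pre-pro-B library to 2.13 ± 0.354, though these peaks are shared with Iftap. Lig4, the ligase that seals the joins, went from 2 to 3 in every library, and Xrcc5 (Ku80) went from 2.25 ± 0.463 to 1 (adjusted p = 0.00164 each, n = 8, exact permutation). Polm, a polymerase that fills the ends, went from 2 in every pro-B library to 4.5 ± 0.535 in small pre-B (adjusted p = 0.00468, n = 8, exact permutation). Between genotypes no gene of either list passed the exact test, where 0% of 16348 genes did. At an unadjusted p under 0.05 stood 2 of 17 and 2 of 21 (Hmgb1, Polm, Pax5 and Gata3, named after their values were seen), against 4.45% of genes.

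The genes whose number of peaks ran most like that of the joint Rag1-Rag2 body with 10 kb on either side were Mrps9 (Pearson r = 0.932), Ppl (0.921), Pcmtd1 (0.918), Acvr1c (0.916) and Ckap2 (0.916). This is a description over the 24 libraries, taken from 15429 genes outside the window, and the values share the libraries, their depth and the fixed list length.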

How the data were processed

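ATAC-seq peak lists of 24 libraries were used. Per the submitters' processing notes, the authors used Trimmomatic, MACS2 (peaks, mm10), deepTools, DiffBind and DESeq2. Versions and the aligner are not given in the sources used here. The deposited lists give each peak a score, a fold over background (a ratio), −log10 p and −log10 q, with a lowest −log10 q of 2. Peaks were called in each library separately. Entries that touch were merged per library, and merged peaks were joined over all libraries into regions. The 40000 strongest peaks of each library by −log10 q were ranked and scored from 100 to 0. Regions, and peak numbers per gene, were tested where at least 4 compared libraries were above 0, by exact permutation of stage within genotype or of genotype within stage (Python 3.11.15, numpy 2.4.6), with Benjamini-Hochberg adjustment over all features. The procedure was tested on simulated data. limma 3.58.1 was an alternative. The regions, lists and genes named follow fixed rules (every region of the window with peaks in 2 libraries of a group, described singly if among the 40000 in 4 libraries, and up to 4 genes per list and comparison by p and then difference). The members and lists were chosen with earlier results of these data known. The 2 alternatives of a peak covering 50% of its region and of leaving out 3 libraries that stand apart in depth or list length (the first small pre-B library of either genotype, replicate 1, and replicate 4 of Mki67-/- pre-pro-B) were chosen after seeing the data. Background coverage was recovered from the deposited −log10 p and fold of weak peaks. Promoter sequences come from RefSeq (GRCm38.p6), and no sequence of distal peaks was used here.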

Additional observations from a re-analysis of the deposited data

Results flagged for a closer look

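Of 75 groups of 4 libraries checked in the window, 5 held a library apart from the other 3 by a gap that chance gives in about 1 group in 20. The number found is near that rate. At 61.4 kb upstream of Rag2, WT small pre-B replicate 3 scored 39.8 and the others 51.1 to 53.1. At 1.3 kb upstream of Rag1, WT pro-B replicate 1 scored 26.2 (others 46.6 to 48.4). At the Traf6 promoter, Mki67-/- pre-pro-B replicate 4, the shallowest of its group, scored 72.2 (others 80.0 to 80.3). At 106.9 kb upstream of Rag1, WT pre-pro-B replicate 1 scored 64.2 (others 68.6 to 69.0). In peak number among the 40000 strongest, WT pre-pro-B replicate 3 held 11 and the others 10. For whole numbers with 3 ties the rule flags any differing value, so the rate of 1 in 20 does not apply there.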

How the results depend on the processing

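Among 44 single-region results, 1079 of 1185 alternative values kept direction and side of the threshold, 99 lost the call, 4 gained it and 3 reversed (Traf6 promoter into pro-B by rank of fold, 8.10; 106.9 kb upstream of Rag1 there, 4.93; genotype at 83.5 kb upstream of Rag1 with 50% of the region covered, 0.85). Presence in deposited lists accounts for 32 of the losses. Counts of regions moved as follows. Into pro-B, 4 were higher by deposited presence, and 5 and 4 lower with 20000 peaks and by rank of fold. Into small pre-B, 3 (20000 peaks, deposited presence, −log10 q of at least 10) or 8 (50000 peaks, rank of fold) were higher and 0 lower by both presence rules. Over the span, 6 were higher with 20000 peaks, and 3 and 8 lower with 20000 and 50000. The single genotype call became 0 with 20000 peaks, by fold, by both presence rules, with 50% covered, with regions of at least 1 library, with the replicate block and without the 3 libraries that stand apart, and 2 with 50000 peaks or limma. Leaving out 1 replicate gave 0 to 1 genotype calls, with the 83.5 kb difference at -8.64 to -7.51 (adjusted p = 0.0280 to 0.0743). In the same runs the first stage step kept 9 higher and 7 to 8 lower regions. The region 117.3 kb upstream of Rag1 lost its first-step call without any single WT pro-B replicate (adjusted p = 0.0682 to 0.0686). The window's peak number into pro-B was 0.75 with 50000 peaks (adjusted p = 0.330), 1 by deposited presence (0.574), 1 at −log10 q of at least 10 (0.639) and -1.43 kb in length covered (0.0763). Into small pre-B it was 0 with 20000 peaks, 0.791 kb in length (0.105), and 2 with the replicate block, where the adjusted p became 0.0758. Over the span length changed by -0.643 kb (0.386). Deviations of same-numbered libraries correlated weakly, at r = -0.023 to 0.0897 over 24 stage pairs and -0.289 to 0.194 over 12 genotype pairs. Their medians (0.0246 and 0.042) were above those of pairs with unlike numbers (-0.0102 and 0.00534). Whether a number marks a shared batch is not known and was not tested. The replicate block lost 6 region calls in all (60.9 kb upstream of Rag2 into small pre-B among them, adjusted p = 0.0878) and moved no other count by over 1.5 times. The cause of these changes was not tested. The planned overlap rule is met by every peak. Depth limits calls at weak regions, and a rank of 0 does not show that a site is closed.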
